A study of Mus musculus with 10 samples.

Results

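The genes described here encode the granule proteins and the cytokine and chemokine receptors of eosinophils. The 9 genes were taken by symbol from the 55359 genes of the expression table: Prg2, Prg3, Epx, Ear1, Ear2, Ear6, Ear10, Il5ra and Ccr3. Expression was measured by RNA-seq in Lin- bone marrow cells, with 5 libraries from Dhx9f/f mice (WT) and 5 from Dhx9f/f;MX1 mice (cKO). Lin- cells are those without the surface markers of mature blood lineages. The methods say that they were sorted, and the study lists a mouse lineage depletion kit without tying it to these libraries. Both groups carry floxed Dhx9, the gene of an RNA and DNA helicase, and only the cKO mice also carry Cre driven by the interferon-responsive Mx1 promoter, which is induced by the RNA mimic poly(I:C). By the general methods of the study, MX1-Cre mice received repeated poly(I:C) injections, and the time of analysis is counted from the first of them for mice in general. The methods do not say outright that the WT mice sequenced here received it. If they did not, an effect of poly(I:C) and an effect of the deletion cannot be told apart. The age of the mice is not given in the sources used here. The labels give the replicates only numbers, while the general statistics statement of the study counts replicates as individual mice unless stated otherwise.

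The targeted gene went against its label. Dhx9 was at 65.43 to 72.42 FPKM (fragments scaled to gene length and library depth) in the WT libraries and at 130.82 to 156.49 FPKM in the libraries labelled cKO, a mean of 69.7 ± 2.84 against 140 ± 12.0 (SD, n = 5 each). These are values over the whole gene, and the floxed exons were not separated, so every direction below rests on the labels. The WT libraries were also of 2 kinds: Xist, the transcript of the inactive X chromosome, was at 0.04 to 0.07 FPKM in WT 1 and 2 and at 99.19 to 127.76 FPKM in WT 3, 4 and 5, and it was at 0.09 FPKM or less in all 5 libraries labelled cKO. The depth recovered from the values was 15026840 to 18824099 fragments in WT and 13791299 to 17183299 fragments in the libraries labelled cKO.

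Eosinophils are granulocytes that mature in the bone marrow under interleukin-5 and are known for defense against helminths and for allergic inflammation. Their granules hold major basic protein (from Prg2), a homolog of it (from Prg3), eosinophil peroxidase (from Epx) and small ribonucleases of the RNase A family, which in the mouse form the large Ear (eosinophil-associated ribonuclease) family. Granule proteins are made early, in eosinophil progenitors and promyelocytes, whereas surface receptors such as CCR3, the receptor of the eotaxins, guide later cells out of the marrow. IL-5 receptor alpha, from Il5ra, binds IL-5 and signals with the beta chain shared with the IL-3 and GM-CSF receptors.

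Of the 9 genes, 8 entered the test and all 8 were lower in the libraries labelled cKO, by limma with a Benjamini-Hochberg adjusted p below 0.05 and at least a 2-fold difference. Among all 18742 genes tested, 16.8% were lower by that rule and 4.6% higher. Log2 fold changes of the 8 genes ran from -3.55 (Ear6) to -1.57 (Il5ra), with a median of -2.76, against a median of -0.11 over all genes tested. In 6 of the 8 genes, every library labelled cKO lay below every WT library, which held for 21.6% of all genes tested. The exceptions were Prg2 and Il5ra. Ear10, the remaining gene, was listed at 0 FPKM in all 10 libraries and was not tested. Lin- cells are a mixed population, so fewer eosinophil-lineage cells and less RNA per cell cannot be told apart in these values.

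**Figure D1:**
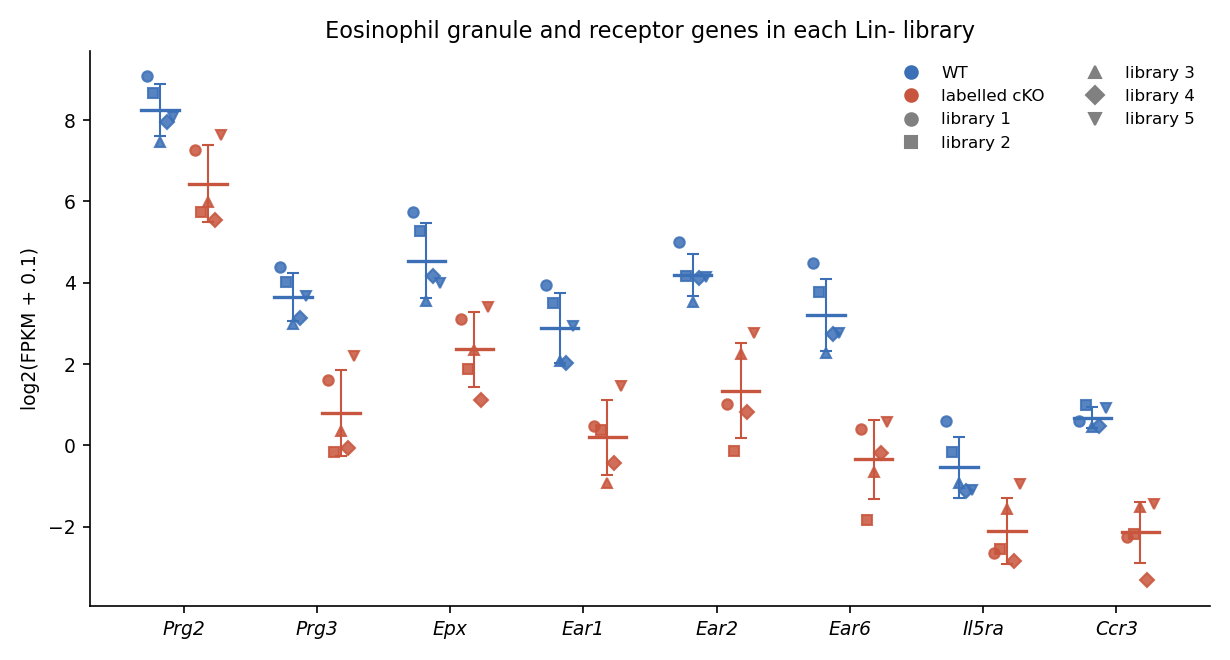
Level of the 8 detected genes as log2(FPKM + 0.1) in each library, WT in blue and the libraries labelled cKO in red, with a marker shape for each library number, a horizontal line for the group mean and bars for the SD (n = 5 each). In 6 genes the groups do not overlap, and in Prg2 and Il5ra the library labelled cKO 5 reaches into the WT range.

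The ribonuclease genes are near-copies of one another, which bears on how far their levels can be separated. The first 120 bases of the longest open reading frames of Ear1 (GRCm39 chr14:44056747-44056866, minus strand), Ear2 (chr14:44340344-44340463, plus strand), Ear6 (chr14:52091455-52091574, plus strand) and Ear10 (chr14:44160706-44160825, minus strand) are shown, 5′ to 3′, because they hold the start of the coding sequence and show how few bases tell the genes apart. Capitals mark the 19 positions at which the 4 genes are not all the same.
Ear1: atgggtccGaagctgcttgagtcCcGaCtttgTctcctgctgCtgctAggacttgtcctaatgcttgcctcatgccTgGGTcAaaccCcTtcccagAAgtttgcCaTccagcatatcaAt
Ear2: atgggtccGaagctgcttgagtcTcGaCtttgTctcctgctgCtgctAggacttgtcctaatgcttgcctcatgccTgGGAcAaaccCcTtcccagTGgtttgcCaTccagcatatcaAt
Ear6: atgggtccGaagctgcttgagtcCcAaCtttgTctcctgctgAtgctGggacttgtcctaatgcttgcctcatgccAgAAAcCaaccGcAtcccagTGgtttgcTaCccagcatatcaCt
Ear10: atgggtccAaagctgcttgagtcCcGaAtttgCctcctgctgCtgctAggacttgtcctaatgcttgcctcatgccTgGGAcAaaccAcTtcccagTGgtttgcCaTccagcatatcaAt

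Over the whole reading frame of 468 bases in Ear1 and Ear6 and 471 bases in Ear2 and Ear10, Ear2 and Ear10 were 97.0% identical, Ear1 and Ear2 95.1%, and Ear1 and Ear10 94.5%. Ear6 stood apart, at 87.4% to 87.7% identity with the other 3. Of all windows of 75 bases in the annotated transcripts, 40.5% of those of Ear1, 14.1% of those of Ear2 and 33.9% of those of Ear10 also occurred in another gene, but none of those of Ear6 did. At the read length of 150 bases the shares fell to 5.67% for Ear1 (shared with the pseudogene Ear-ps9), 3.20% for Ear2 (shared with Ear10) and 6.81% for Ear10 (shared with Ear2). The values of Ear1, Ear2 and Ear10 are therefore uncertain where reads were split among copies, and how multiply aligned reads were counted is not given in the sources used here. Ear1 also shares 17 exonic bases with Ear-ps9 on the same strand, and Ear2 shares 81 with Gm49099 on the opposite strand. No window of either length of Prg2, Prg3, Epx, Ear6, Il5ra or Ccr3 occurred in another gene.

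Among the granule protein genes, Prg2 (ENSMUSG00000027073, GRCm39 chr2:84789208-84813977, plus strand) was the most abundant of the genes in every library. Its levels were 543.12, 405.14, 175.83, 248.35 and 267.77 FPKM in WT 1 to 5 and 154.25, 53.73, 63.35, 46.67 and 197.97 FPKM in cKO 1 to 5 as labelled. The libraries labelled cKO 1 to 4 lay below all WT libraries, and cKO 5 lay above WT 3. The mean was 328 ± 146 FPKM in WT and 103 ± 68.6 FPKM in the libraries labelled cKO (SD, n = 5 each). The log2 fold change was -1.81 (SE 0.441, adjusted p = 0.00646 by limma with Benjamini-Hochberg adjustment), and a two-sided exact permutation test of the same difference gave p = 0.0159, where the smallest p possible with 5 against 5 libraries is 0.00794.

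Prg3 (ENSMUSG00000027072, chr2:84818537-84824238, plus strand) is the next gene on the same strand and encodes the homolog of major basic protein, with a reading frame 64.3% identical to that of Prg2. It was at 20.94, 16.2, 7.77, 8.73 and 12.61 FPKM in WT 1 to 5 and at 2.97, 0.8, 1.18, 0.85 and 4.5 FPKM in cKO 1 to 5 as labelled. The groups did not overlap, with cKO 5 the closest to WT. The log2 fold change was -2.85 (SE 0.474, adjusted p = 7.32e-04 by limma), with an exact permutation p = 0.00794.

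Epx (ENSMUSG00000052234, chr11:87754826-87766362, minus strand) encodes the peroxidase of the granule, an enzyme that makes hypohalous acids. Its levels were 53.03, 38.36, 11.7, 17.91 and 15.86 FPKM in WT 1 to 5 and 8.5, 3.59, 4.96, 2.06 and 10.42 FPKM in cKO 1 to 5 as labelled. The groups did not overlap, but WT 3 and cKO 5 were close. Epx fell by 2.18 on the log2 scale (SE 0.503, adjusted p = 0.00480 by limma), with an exact permutation p = 0.00794.

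Prg3 differed more between the groups than Prg2 did. Within each library, Prg3 was 3.86%, 4.0%, 4.42%, 3.52% and 4.71% of the Prg2 FPKM in WT 1 to 5 and 1.93%, 1.49%, 1.86%, 1.82% and 2.27% in the libraries labelled cKO 1 to 5. The groups did not overlap, and the spread within each was small beside the difference. On the log2(FPKM + 0.1) scale, the ratio of Prg3 to Prg2 was -4.60 ± 0.166 in WT and -5.65 ± 0.169 in the libraries labelled cKO (SD, n = 5 each), a difference of -1.04 (two-sided exact permutation p = 0.00794, adjusted p = 0.0238 over the 3 ratios compared). The ratio of Epx to Prg2 ran from 5.92% to 9.76% in WT and from 4.41% to 7.83% in the libraries labelled cKO, with overlap. Its log2 difference of -0.37 did not pass (exact permutation p = 0.111, adjusted p = 0.167 over 3 ratios).

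**Figure D2:**
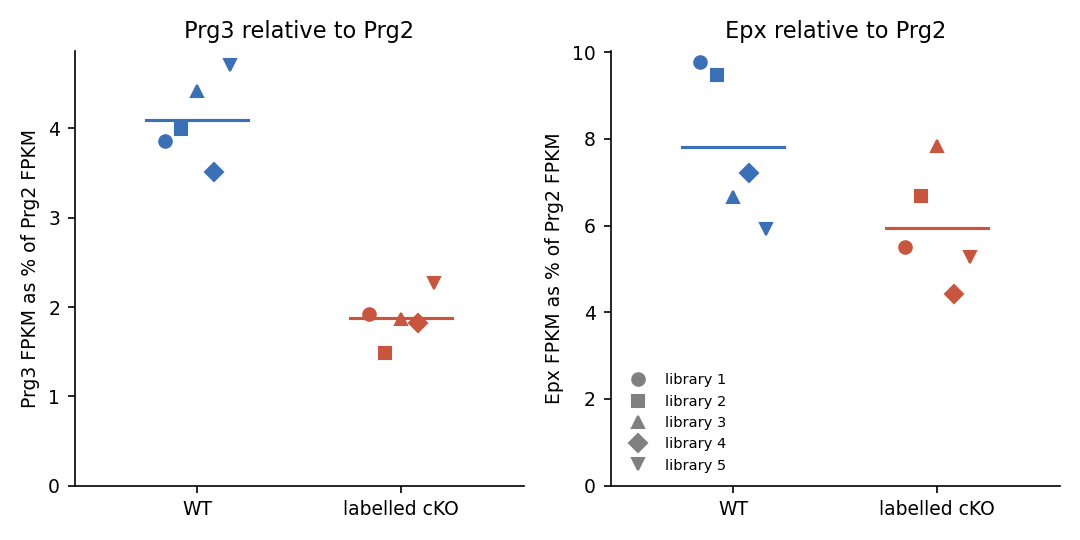
FPKM of Prg3 (left) and Epx (right) as a percentage of the Prg2 FPKM of the same library, with a point for each library and a line for the group mean. Prg3 sits between 3.52% and 4.71% in WT and between 1.49% and 2.27% in the libraries labelled cKO, whereas the 2 groups overlap for Epx.

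The ribonucleases fell with the granule proteins. Ear1 (ENSMUSG00000072601, chr14:44056222-44112974, minus strand) was at 15.29, 11.23, 4.08, 3.95 and 7.56 FPKM in WT 1 to 5 and 1.29, 1.2, 0.43, 0.64 and 2.67 FPKM in cKO 1 to 5 as labelled, without overlap. The log2 fold change was -2.70 (SE 0.492, adjusted p = 0.00123 by limma). Ear2 (ENSMUSG00000072596, chr14:44311771-44340996, plus strand) was at 31.98, 17.95, 11.52, 17.25 and 17.57 FPKM in WT and, in the order cKO 1 to 5, at 1.91, 0.81, 4.68, 1.68 and 6.73 FPKM in the others. The groups were again separate, and the log2 fold change was -2.85 (SE 0.496, adjusted p = 9.46e-04 by limma).

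Ear6 (ENSMUSG00000062148, chr14:52091156-52092100, plus strand), the member of the family with no 75-base window in common with another gene, differed most. It was at 22.23, 13.46, 4.72, 6.62 and 6.75 FPKM in WT 1 to 5 and at 1.22, 0.18, 0.53, 0.78 and 1.4 FPKM in cKO 1 to 5 as labelled. The lowest value labelled cKO stood for about 2.92 fragments and the highest for about 20.9. The mean fell from 10.8 ± 7.22 to 0.822 ± 0.498 FPKM (SD, n = 5 each), which is a change of -3.55 on the log2 scale (SE 0.518, adjusted p = 3.57e-04 by limma). Ear1, Ear2 and Ear6 each gave an exact permutation p = 0.00794.

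Ear10 (ENSMUSG00000090166, chr14:44160177-44161016, minus strand) was listed at 0 in every library. With 3 fragments taken as the floor, a level below 0.235 to 0.321 FPKM, depending on the library, could not be seen for its length, counting error only. Since the share of its 150-base windows found in another gene is small, reads of Ear10 could in most places be told from those of Ear2.

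The sequence upstream of the ribonuclease genes is also similar. All identities given here count gaps as differences, and on that count 5 of the 6 pairs were less alike upstream than in the reading frames. Of the upstream bases of Ear6 that aligned, 212 of 229 were identical to Ear1, 211 of 227 to Ear2 and 213 of 231 to Ear10. In the reading frames these were 409, 413 and 412 of 468, so the lower upstream identity of Ear6 rests on gaps. The 250 bases before the RefSeq starts (taken from GRCm38.p6 and located in GRCm39 by exact match) were 97.6% identical between Ear1 and Ear2, 91.7% between Ear1 and Ear10 and 90.6% between Ear2 and Ear10, whereas Ear6 was 77.3% to 79.2% identical to the other 3. Those of Ear2 (chr14:44339861-44340110, plus strand) and Ear6 (chr14:52090975-52091224, plus strand) are shown because these are the most abundant ribonuclease gene and the one with the largest fall, and capitals mark a match to TTGCNNAA, a core of the site bound by C/EBP factors.
Ear2: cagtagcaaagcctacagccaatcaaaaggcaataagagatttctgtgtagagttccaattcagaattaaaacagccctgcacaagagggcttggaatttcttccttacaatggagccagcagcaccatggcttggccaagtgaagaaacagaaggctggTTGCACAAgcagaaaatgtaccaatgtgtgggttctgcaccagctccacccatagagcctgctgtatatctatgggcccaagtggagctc
Ear6: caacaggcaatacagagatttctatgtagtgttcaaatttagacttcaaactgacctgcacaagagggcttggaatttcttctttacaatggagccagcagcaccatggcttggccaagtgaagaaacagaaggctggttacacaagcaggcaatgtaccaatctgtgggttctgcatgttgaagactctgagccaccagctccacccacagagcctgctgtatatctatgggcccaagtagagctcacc

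The C/EBP core was searched on both strands of the 250-base windows. It was present in Ear1, Ear2 and Ear10, each time as TTGCACAA on the strand of the gene with its first base at -92, -90 and -94 from the start, and in none of the other 5 genes with a window. It occurs in 9.56% of all 32851 promoter windows. The 3 matches lie in near-identical sequence and are not independent, and Ear2 and Ear10 share the match although Ear10 was listed at 0. The starts of Ear1, Ear2, Ear6 and Prg3 in RefSeq lie within the longer spans given above, so their windows overlap the annotated genes. The Ear6 window ends at chr14:52091224 and the annotated gene begins at chr14:52091156, so the last bases printed for Ear6 are annotated exon. Prg2 has no window in the promoter table.

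The receptor genes were expressed at far lower levels than the granule genes. Il5ra (ENSMUSG00000005364, chr6:106686622-106725998, minus strand) was at 1.41, 0.79, 0.43, 0.36 and 0.37 FPKM in WT 1 to 5, about 23.8 to 99.7 fragments, and at 0.06, 0.07, 0.24, 0.04 and 0.42 FPKM in cKO 1 to 5 as labelled, about 2.56 to 28.4 fragments. The libraries labelled cKO 1 to 4 lay below all WT libraries, and cKO 5 lay above WT 4 and 5. The log2 fold change was -1.57 (SE 0.467, adjusted p = 0.0181 by limma), with an exact permutation p = 0.0238. It is the least certain of the 8 changes, and the smallest on the log2(FPKM + 0.1) scale. Without a pseudocount, the WT mean was 4.05 times the mean labelled cKO for Il5ra and 3.18 times for Prg2. With a pseudocount of 1, which outweighs such low values, the Il5ra change was -0.49 and under 2-fold. After quantile normalization its adjusted p by limma was 0.0526. The ratio of Il5ra to Prg2 differed by 0.24 on the log2 scale (exact permutation p = 0.611, adjusted p = 0.611 over 3 ratios), and its sign changed with the pseudocount.

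Ccr3 (ENSMUSG00000035448, chr9:123822009-123831726, plus strand) was at 1.41, 1.88, 1.27, 1.29 and 1.79 FPKM in WT 1 to 5 and at 0.11, 0.12, 0.25, 0 and 0.27 FPKM in cKO 1 to 5 as labelled. The WT values stood for 64.1 to 101.5 fragments and those labelled cKO for 0 to 13.98, without overlap. The mean fell from 1.53 ± 0.287 to 0.150 ± 0.111 FPKM (SD, n = 5 each), which is -2.83 on the log2 scale (SE 0.354, adjusted p = 1.68e-04 by limma, exact permutation p = 0.00794). Ccr3 had the smallest SE of the 8 genes. Its WT libraries were close to one another, and its values labelled cKO lay near the pseudocount of 0.1, which narrows their spread on the log2 scale.

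The 250 bases before the starts of Il5ra (chr6:106725999-106726248, minus strand) and Ccr3 (chr9:123821758-123822007, plus strand) are shown because they were the only ones of the 8 windows with a match to AGATAA, a site of GATA factors. Capitals mark AGATAA in both and GAGGAA, a core bound by PU.1, in Ccr3.
Il5ra: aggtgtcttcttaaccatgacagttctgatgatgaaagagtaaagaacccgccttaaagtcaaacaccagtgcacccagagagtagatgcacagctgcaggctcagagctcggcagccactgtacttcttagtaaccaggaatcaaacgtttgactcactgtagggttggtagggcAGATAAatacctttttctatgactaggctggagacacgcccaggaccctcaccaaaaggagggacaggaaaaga
Ccr3: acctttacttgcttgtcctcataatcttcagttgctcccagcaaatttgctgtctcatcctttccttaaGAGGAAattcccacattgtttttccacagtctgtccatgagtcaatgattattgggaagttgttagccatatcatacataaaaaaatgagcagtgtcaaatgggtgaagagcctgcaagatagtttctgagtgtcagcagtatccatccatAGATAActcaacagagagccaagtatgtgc

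On both strands, AGATAA was found in 2 of the 8 windows, at -74 to -69 from the start of Il5ra and at -30 to -25 from that of Ccr3, and in 9.99% of all 32851 windows. GAGGAA was found in 1 of the 8, at -181 to -176 from the start of Ccr3, and in 23.3% of all windows. No other match of either was present. A match describes these letters only, and nothing about a factor follows from a missing one.

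The levels, which are per length, kept nearly the same order in both groups. In WT the order was Prg2 (mean 328 FPKM), Epx (27.4), Ear2 (19.3), Prg3 (13.2), Ear6 (10.8), Ear1 (8.42), Ccr3 (1.53) and Il5ra (0.672). Prg2 over Epx, Ear2 over Prg3 and Ear1 over Ccr3 held in 5 of 5 WT libraries and the other steps in 4 of 5. In the libraries labelled cKO, Ear1 stood before Ear6, in 3 of 5 libraries, and Il5ra before Ccr3, in 2 of 5, so neither of these neighbors differed beyond the spread.

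Within the groups most of the genes varied together from library to library. After subtraction of the group means, the median Pearson correlation over the 10 libraries was 0.659 for the 28 pairs of genes, with 24 pairs over 0.5. The closest pair was Prg2 and Prg3 (0.982) and the loosest Ear6 and Ccr3 (0.121). In WT alone, Ccr3 correlated with the other genes at 0.1205 (Il5ra) to 0.553 (Ear1), and all pairs without Ccr3 were at 0.792 or more. In the libraries labelled cKO alone, pairs ran from 0.0843 (Ear6 and Ccr3) to 0.992 (Prg2 and Prg3). The points of a pair share library, depth and cell mixture, so these are descriptions. WT 1 and 2 were both above WT 3, 4 and 5 in 7 of the 8 genes, all but Ccr3, and in 9.56% of all genes tested. Among the libraries labelled cKO, cKO 5 was the highest for all 8 genes, followed by cKO 1 for Prg2, Prg3, Epx, Ear1 and Ear6 and by cKO 3 for Ear2, Il5ra and Ccr3.

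The split of WT 1 and 2 from WT 3 to 5 runs along Xist, so the comparison was repeated in other ways. With a covariate for Xist above 1 FPKM, which sets the libraries labelled cKO against WT 1 and 2, all 8 genes were called lower with a median log2 fold change of -3.19 (14.9% of all genes lower). With WT 3 to 5 alone against the 5 libraries labelled cKO, a comparison chosen after the data were seen, 6 of the 8 were called, with a median of -2.31 (14.5% of all genes lower). There Prg2 had a log2 fold change of -1.39 and an adjusted p = 0.0543 by limma, and Il5ra had -1.07 and an adjusted p = 0.122. Epx was at -1.54 (adjusted p = 0.0354 by limma), and Ccr3 moved least among the 3 fits, from -2.93 to -2.76. No library labelled cKO has Xist above 1 FPKM, so the full groups are not balanced in the sex that Xist marks. Only WT 1 and 2 match the libraries labelled cKO in Xist, and the fold changes of the covariate fit rest on WT 1 and 2.

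**Figure D3:**
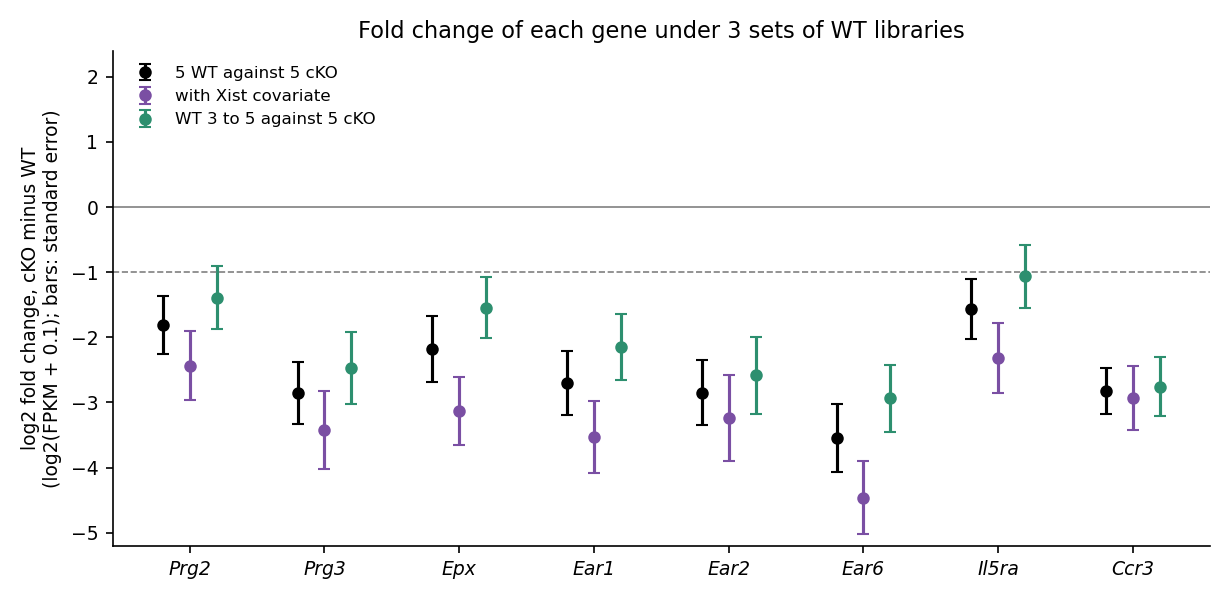
Log2 fold change, cKO minus WT, of the 8 genes with its standard error, from all 10 libraries (black), with a covariate for Xist (purple) and from WT 3 to 5 against the 5 libraries labelled cKO (green), with a dashed line at a 2-fold fall. All values are below the line, from -4.46 for Ear6 with the covariate to -1.07 for Il5ra without WT 1 and 2.

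Other members of the RNase A family outside these genes were also lower. All 4 that were tested were called, with a median log2 fold change of -2.53. Rnase2a, a near relative of the Ear genes, was at 0.52 to 2.12 FPKM in WT and at 0 to 0.36 FPKM in the libraries labelled cKO (log2 fold change -3.03). Ang, which encodes angiogenin, changed by -2.52, Rnase4 by -2.53 and Rnase6 by -2.18, each on the log2 scale. Ear14 was listed at 0 in all libraries, and Rnase2b was under the limit for testing with a highest value of 0.4 FPKM.

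Of 9 tested genes from a list of other eosinophil-associated genes, 6 were lower and 0 higher by limma, also 0 higher at an unadjusted p under 0.05, with a median log2 fold change of -2.36. Siglecf, the surface lectin by which mouse eosinophils are recognized, was at 4.32 to 7.44 FPKM in WT and at 0.50 to 1.82 FPKM in the libraries labelled cKO, a log2 fold change of -2.36 (SE 0.304, adjusted p = 1.93e-04 by limma). Alox5ap, which activates 5-lipoxygenase for leukotriene synthesis, fell from 117.9 ± 26.8 to 22.1 ± 14.1 FPKM (SD, n = 5 each). Hrh4, the histamine H4 receptor, changed by -3.05, and Cd63, a granule membrane protein that many other cells also carry, by -1.80 on the log2 scale. The remaining genes called lower, Adgre1 and Alox15, are also expressed by macrophages. Il1rl1, the IL-33 receptor, was at 18.4 ± 3.82 FPKM in WT and 21.1 ± 3.66 FPKM in the libraries labelled cKO (adjusted p = 0.318 by limma), and Alox5 and Ltc4s were not called either.

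IL-5 signals through Il5ra, the shared beta chain and JAK2 to STAT5. In the list of IL-5 family receptors and signalling genes, 6 of 12 tested were lower and 2 higher, with a median log2 fold change of -0.97. Those lower were the alpha chains of the related receptors, Il3ra and Csf2ra, the beta chains Csf2rb and Csf2rb2, and the kinases Lyn and Syk. Csf2ra fell from 27.2 ± 6.18 to 5.09 ± 1.66 FPKM (SD, n = 5 each), or by -2.43 on the log2 scale (SE 0.218, adjusted p = 5.0e-05 by limma). Syk changed by -1.68 and Lyn by -1.09 on the log2 scale, and Lyn was just under 2-fold, at -0.99, after median-ratio scaling.

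Downstream, Jak2 was at 38.01 to 45.75 FPKM in WT. In the libraries labelled cKO it was at 46.69 FPKM in cKO 1 and at 18.80 to 20.82 FPKM in the other 4. Its log2 fold change of -0.84 was under 2-fold with all libraries, and without cKO 1 it was -1.09 and called. Stat5b was at 33.9 ± 1.77 FPKM in WT and 30.0 ± 4.78 FPKM in the libraries labelled cKO (adjusted p = 0.136 by limma). The genes called higher were 2 known STAT5 targets, and in which cells of the mixed population they rose was not tested. Cish, a feedback inhibitor, rose from 0.46 to 0.91 FPKM in WT to 3.86 to 18.48 FPKM in the libraries labelled cKO, a log2 fold change of 3.71, and the kinase gene Pim1 rose by 1.63. Il3 was listed at 0 in all libraries, and the ligand genes Il5 and Csf2 were under the limit for testing.

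Among 6 chemokine genes whose products bind CCR3, the eotaxin genes Ccl11 and Ccl26 and the gene Ccl7 were listed at 0 in every library, and the eotaxin gene Ccl24 was under the limit for testing, at 0.26 FPKM or less. The 2 genes tested went in opposite directions. Ccl5 was at 2.01 to 5.12 FPKM in WT and at 0.24 to 0.92 FPKM in the libraries labelled cKO, a log2 fold change of -2.36 (adjusted p = 3.59e-04 by limma). Every WT library listed Ccl8 at 0, and it was at 0.68 to 4.52 FPKM in the libraries labelled cKO, passing the test as higher (adjusted p = 1.23e-04 by limma).

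Transcription factors that act in eosinophil development were split. Of 12 tested, 5 were lower and 0 higher by limma, with a median log2 fold change of -1.07. At an unadjusted p under 0.05 these counts were 9 and 2 of 12, where 32.3% of all genes tested were lower and 20% (3746 of 18742) higher, and without the library labelled cKO 3 the number called lower was 8. Spi1, which encodes PU.1, fell from 40.3 ± 6.59 to 12.1 ± 2.26 FPKM (SD, n = 5 each), or by -1.73 on the log2 scale (SE 0.149, adjusted p = 4.6e-05 by limma), and Xbp1, a regulator of secretory protein folding, changed by -1.24. The other genes called lower were Cebpa, Cebpe and Irf8, all with broader roles in granulocytes and monocytes. Gata1, which is needed for eosinophils as well as for red cells, was at 48.00 to 77.36 FPKM in WT and 92.03 to 109.38 FPKM in the libraries labelled cKO. This difference of 0.81 on the log2 scale had an adjusted p = 3.60e-04 by limma but was under 2-fold. Zfpm1, a cofactor of GATA factors, was at 0.65 (adjusted p = 0.00624 by limma), also under 2-fold. Gata2, which acts in progenitors and in basophils, and Cebpb were lower by a like amount, at -0.90 (adjusted p = 0.00567) and -0.92 (adjusted p = 0.0472 by limma), and were under 2-fold too.

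Among markers of other blood cells, most of those called were lower except in the erythroid list, and their part in the result was not tested. Of 12 tested mast cell and basophil genes, 9 were lower and 2 higher, and their summed level was 693 to 1388 FPKM in WT and 85.2 to 592 FPKM in the libraries labelled cKO. The basophil proteases led it: Prss34 fell from 622 ± 166 to 117 ± 88.8 FPKM and Mcpt8 from 322 ± 66.4 to 83.4 ± 69.3 FPKM (SD, n = 5 each). The 2 genes higher were the mast cell proteases Mcpt4, which was at 0 in every WT library and at 0.24 to 1.26 FPKM in those labelled cKO, and Tpsb2, at 0.04 FPKM or less in WT and at 0.55 FPKM or less in those labelled cKO. Without the library labelled cKO 2, only 1 of these was called. Monocyte genes were lower in 10 of 11 (summed level 1014 to 1774 FPKM in WT, 10.6 to 317 FPKM in the libraries labelled cKO).

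Of 15 neutrophil genes, 6 were lower and 0 higher by limma, 7 and 0 at an unadjusted p under 0.05. Their summed level was 2762 to 3763 FPKM in WT and 150 to 2655 FPKM in the libraries labelled cKO. In WT it was led by the primary granule genes Mpo and Elane, with log2 fold changes of -3.05 and -3.30. In the library labelled cKO 1, S100a9 (894.75 FPKM), S100a8 (442.9 FPKM) and Ngp (317.58 FPKM) lay above Mpo (277.33 FPKM). S100a8 and S100a9 were not called (adjusted p of 0.404 and 0.897 by limma). The secondary and tertiary granule genes of the list were split. Ltf, Camp, Ngp, Lcn2 and Mmp9 had log2 fold changes of 1.39, 0.98, 1.43, 0.69 and 0.56, and none was called (adjusted p of 0.271 to 0.559 by limma). Mmp8 went the other way, at -2.48, and was not called either (adjusted p = 0.0598 by limma). Ngp was at 10.3 ± 6.60 FPKM in WT and 82.3 ± 134 FPKM in the libraries labelled cKO (SD, n = 5 each), a spread larger than the difference. Median log2 fold changes were -1.24 for the neutrophil list, -1.81 for the mast cell and basophil list, -4.09 for the monocyte list and -2.76 for the eosinophil genes. Erythroid genes went the other way, with 8 of 15 higher and 0 lower by limma, 14 and 0 at an unadjusted p under 0.05, a median of 1.32 and a summed level of 1800 to 3190 FPKM in WT and 5080 to 8502 FPKM in the libraries labelled cKO. For comparison, the summed level of the eosinophil genes was 217 to 689 FPKM in WT and 52.7 to 224 FPKM in the libraries labelled cKO.

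Lymphoid and stromal lists had summed levels of at most 101.4 FPKM in any library. B lymphoid genes were lower in 4 of 7 (summed level 27.5 to 35.5 FPKM in WT and 0.87 to 8.50 FPKM in the libraries labelled cKO), T and NK genes in 3 of 7 (76.7 to 101.4 against 7.33 to 28.1 FPKM), and stromal and endothelial genes in 5 of 7, with 1 higher (6.17 to 14.9 against 3.09 to 10.2 FPKM). The T and NK sum was mostly Nkg7, a cytotoxic granule gene, at 82.6 ± 9.54 FPKM in WT and 15.1 ± 8.63 FPKM in the libraries labelled cKO (SD, n = 5 each). The T cell receptor complex genes Cd3e, Cd3g and Cd3d had log2 fold changes of 0.53, 0.29 and -0.62 and were not called. In the B lymphoid and the T and NK lists 0 genes were higher by limma, and 0 at an unadjusted p under 0.05. Quantile normalization gave 1 T and NK gene higher, and the 1 stromal gene higher was lost without WT 3, 4 or 5 or cKO 2, 3 or 4. No gene of the 7 lists of other cell types was at 0 in all 10 libraries.

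**Figure D4:**
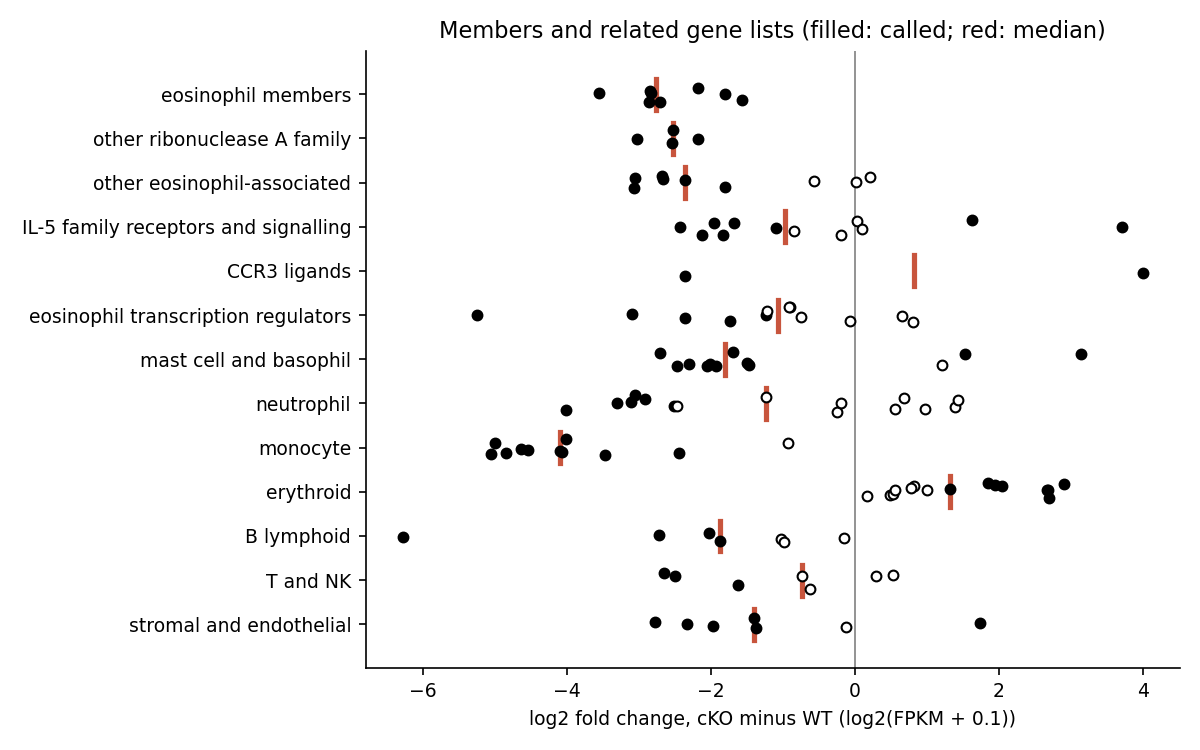
Log2 fold change, cKO minus WT, on the log2(FPKM + 0.1) scale for each tested gene of the eosinophil genes and of 12 other lists, with filled points for genes called by limma, open points for those not called and a red bar for the median of the list. All 8 eosinophil genes are filled and left of -1, and the erythroid genes lie to the right of 0.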

How the data were processed

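The authors trimmed adapter and primer sequence, dropped reads with a quality below 20, aligned paired reads of 150 bases to GRCm39 with HISAT2 and deposited 1 FPKM value for each gene in each library. The submitters' processing notes also name cutadapt 1.9.1, HISAT2 2.0.1 and HTSeq 0.6.1, and the gene lengths behind the FPKM are not given in the sources used here. Each of the 10 columns was assigned to its group and replicate number by its name.

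Depth (13791299 to 18824099 fragments) was recovered from genes with a single transcript in GENCODE M39, where 95.9% to 96.7% of values of up to 20 fragments came out whole within 0.2. Fragment numbers are approximate for genes with several transcripts, and floors of 3 fragments cover counting error only. Libraries of a group differed beyond sampling noise, with a lowest chi-square over degrees of freedom of 4.57.

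FPKM are not counts, so the count test of the study was not run. Values were tested as log2(FPKM + 0.1) by two-sided limma 3.58.1 in R 4.3.3, with lmFit, eBayes and an intensity trend, and adjusted by Benjamini-Hochberg over 18742 genes whose mean reached 0.1 FPKM. The step was checked on simulated data. Fold changes are on that scale and understate changes of low genes. A gene was called with an adjusted p below 0.05 and at least a 2-fold difference. Permutation tests were exact (scipy 1.17.1, Python 3.11.15). Ratios were compared for 3 pairs of genes.

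The genes, the 12 related lists (from general knowledge) and the tests were chosen with earlier results of these data known, so a list is described by counts and its median only. Named genes were the 9 genes, Dhx9 and Xist, up to 3 genes of each list by highest WT mean and up to 3 by smallest adjusted p, and the 5 genes whose levels followed the mean of the eosinophil genes most closely within groups. Further genes of a list are named for what was called or not called, and were chosen after their values were seen. Promoter windows came from RefSeq (GRCm38.p6, 8 of 9 genes matched), and reading frames from GENCODE transcripts as the longest open frame.

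Alternatives tried were pseudocounts of 0.01 and 1, filters at 1 FPKM or none, scaling by median ratio, by the sum of each library or by quantiles, a fit without the trend, with a replicate block or with a covariate for Xist, calls by adjusted p alone, and leaving out each library. The fit with WT 3 to 5 and the alternatives of the ratios were added after the data were seen.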

Additional observations from a re-analysis of the deposited data

How the results depend on the processing

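Prg3, Epx, Ear1, Ear2, Ear6 and Ccr3 were called lower in every one of the alternatives in which they were tested, Prg2 in all but the fit with WT 3 to 5, and Il5ra in all but that fit, the pseudocount of 1 and quantile normalization. With a pseudocount of 1, 356 genes were higher and 1486 lower, 7 eosinophil genes were called, their median log2 fold change was -1.98, and the log2 ratio of Il5ra to Prg2 differed by 1.30 (exact permutation, adjusted p = 0.0357), since a pseudocount above the Il5ra values outweighs them. With a pseudocount of 0.01 that ratio reversed to -0.43. With the filter at 1 FPKM, 462 genes were higher and 1827 lower, and 6 eosinophil genes were tested and called. Quantile normalization gave 1581 higher and 2245 lower, so that 41.3% of called genes were higher against 21.5% before, with the median of all genes moving from -0.11 to 0.10, and 7 eosinophil genes called. Adjusted p alone gave 3138 higher and 5300 lower. Leaving out each library in turn gave 762 to 948 genes higher and 2892 to 3268 lower, 8 eosinophil genes called each time, their median at -3.01 to -2.54, and log2 ratios of -1.10 to -0.98 for Prg3, -0.48 to -0.28 for Epx and -0.0089 (without cKO 3) to 0.58 for Il5ra. Ighv1-22, at -0.20 and never called, reversed to 0.14 with a pseudocount of 1, 0.060 with quantile normalization, 0.64 with WT 3 to 5 and 0.33 at most with 1 library left out, its lowest value there being -1.15. The cause of these changes was not tested. Same-numbered WT and cKO libraries deviated together weakly or not at all (correlations -0.0103 to 0.117, 1 of 5 over 0.1), while 5 of 10 libraries correlated best with their own number. These values do not settle whether the numbers are pairs. The labels do not call them pairs, and the main fit did not use them as such. With the replicate number as a block, 857 genes were higher, 3107 lower and 8 eosinophil genes called. Depth limits Il5ra, Ccr3 and Ear6 in the libraries labelled cKO, where each had a library under 3 fragments.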

Other observations

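The genes whose levels followed the mean of the 8 detected eosinophil genes most closely, among 12347 genes whose mean reached 1 FPKM and after subtraction of the group means over the 10 libraries, were Marf1 (Pearson r 0.955), I730030J21Rik (0.954), Ighv1-22 (0.954), Dvl3 (0.936) and Fgf3 (0.935). These are the top of a long ranking over few libraries and are given as a description. Fgf3, which encodes a fibroblast growth factor, was at 4.98, 3.53, 2.09, 3.03 and 3.4 FPKM in WT 1 to 5 and at 0.43, 0.2, 0.32, 0.26 and 0.54 FPKM in cKO 1 to 5 as labelled. The groups did not overlap, and the log2 fold change was -2.96 (SE 0.275, adjusted p = 5.31e-05 by limma). I730030J21Rik fell by 2.24 on the log2 scale, whereas Marf1 and Dvl3 changed by -0.62 and -0.41, under 2-fold. Ighv1-22, an immunoglobulin segment, was at 5.91 FPKM in cKO 5 and at 1.71 FPKM or less elsewhere, and was not called (adjusted p = 0.906 by limma).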
